A study of Mus musculus with 14 samples.

Results

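The 6 lung samples collected after birth were compared with the 8 collected before birth, to find the small RNAs whose level separates the 2 periods of life as a whole. The 6 and the 8 are all 14 samples of the series. Each of the 516 rows of the deposited table is 1 quantitative PCR assay of 1 small RNA. Of these rows, 397 held a value in at least 1 sample and 219 held a value in all 14. The rows described below were of 2 kinds, drawn from the table. The first kind is an assay measured in all 14 samples whose postnatal and embryonic values did not overlap, which held for 30 of the 219 on one scale and 43 on the other (57 on at least 1 of them). The second kind is an assay measured in 1 period only, which held for 51 embryonic and 11 postnatal assays of the 397.

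Whole lungs were pooled for each sample, from mice of the outbred ICR strain that the labels call female and that received no treatment, and total RNA was profiled. The embryonic group holds 2 samples each of embryo days 12, 14, 16 and 18 (E12 to E18), counted from day 0 at the plug. The postnatal group holds 2 samples each of postnatal days 2 and 10 (P2, P10) and of adults, whose age the labels do not state. Whether both samples of a time point came from different pools of lungs is not stated in the sources used here. The p-values can thus reflect technical spread alone.

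MicroRNAs (miRNAs) are short RNAs that guide Argonaute proteins to messenger RNAs, mainly through a seed near their 5′ end, and lower the stability and translation of these targets. In the mouse lung the airway tree is laid down by branching before birth, sac-like airspaces form late in gestation, and most alveoli are divided off after birth. The cell types of the lung change over the same time. In whole-lung RNA, fewer cells of a type and less of a miRNA per cell cannot be told apart.

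The level of an assay was taken from its ΔCT, the threshold cycle of the assay minus the cycle of the internal control, the small nuclear RNA U6. High levels thus have a low ΔCT, and since assays can differ in efficiency, levels were compared between samples and not between assays. A difference of 1 cycle corresponds to a 2-fold difference if the product doubles each cycle. Differences are given as postnatal minus embryonic minus ΔCT, so that a positive value is a higher postnatal level on the log2 scale. A second scale, called the global mean here, subtracts from each sample its own mean over the 219 assays. Most values of a sample lie about whole cycles apart, so gaps much under 1 cycle are finer than the steps of the data. The rows carry an assay number, and no source used here pairs these numbers with miRNA names. For this reason no row is named or given a function, no sequence is shown, and the lists of miRNA families and cell type markers could not be looked up. The numbers of 4 assays are printed, 2 that were higher and 2 that were lower after birth. The others are described by their values.

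Fewer small RNA assays gave a value in the lung after birth. Between 315 and 335 assays gave a value in the embryonic samples (mean 325 ± 6.61 SD, n = 8). Between 272 and 311 did in the postnatal samples (mean 288 ± 15.7 SD, n = 6). The 2 ranges did not meet. The difference of -37.4 assays had an exact permutation p of 0.000666 (two-sided), the smallest that 8 against 6 samples can give. The test shuffled the samples as if independent, though the 2 samples of a time point share their stage. With the 4 and 3 time points as units, a p this small could not be reached. P2 lay nearest to the embryonic samples with 311 and 301 assays.

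The mean level of the 219 assays did not separate the periods. It was a ΔCT of 11.02 ± 0.60 (SD, n = 8) before birth and 11.11 ± 0.28 (n = 6) after, a difference of -0.09 on the log2 scale (exact permutation p = 0.764, two-sided). The lowest mean ΔCT values were those of E18 replicate 1 at 9.94 and E18 replicate 2 at 10.4. The other 12 samples ranged from 10.9 to 11.6. Both E18 samples thus stood above both samples of the next time point, P2, at 11.59 and 10.96. The periods were compared on both scales, while some values of single assays are given against U6 only.

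**Figure D1:**
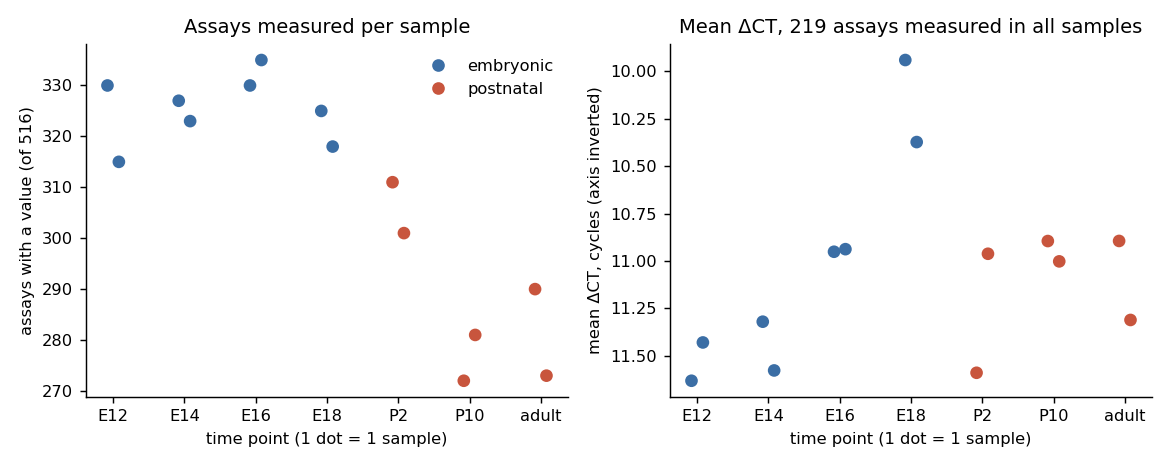
Number of assays with a value (left) and mean ΔCT in cycles over the 219 assays measured in all samples (right, axis inverted so that up is a higher level) for each of the 14 samples by time point, with 1 dot for each sample. All 6 postnatal samples measured fewer assays than any embryonic sample, and both E18 samples (9.94 and 10.4) sit above all others in mean level.

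Against U6, 29 assays were lower in every postnatal sample than in any embryonic sample, which is 13.2% of the 219. Only 1 assay was higher in every postnatal sample (0.457%). The 29 were 2.14-fold to 73.8-fold lower after birth, with a median of 5.41-fold (median difference -2.44). The median difference of all 219 assays was 0.07. Their mean ΔCT over all samples ran from 3.999 to 14.1, with a median of 10.6. The gap between the 2 ranges was above 1 cycle in 10 of the 29 and above 0.5 cycle in 15. It was 0.52 cycles at the median, and it ran from 0.02 to 2.06 cycles. The nearest assay that missed the rule overlapped by 0.01 cycle, so the edge of this set is finer than the data resolve.

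Against the global mean, 18 assays were lower in every postnatal sample (8.22%) and 25 were higher (11.4%). The 18 were lower by 2.21-fold to 69.4-fold, with a median of 8.79-fold. The 25 were higher by 2.50-fold to 20.0-fold, with a median of 4.49-fold (median difference 2.17, against 0.16 over all 219 assays on this scale). Their gaps ran from 0.07 to 1.12 cycles, and 2 of the 25 exceeded 1 cycle. Of the falls, 15 assays met the rule on both scales, 14 against U6 only and 3 against the global mean only. The 14 kept a median difference of -1.94 against the global mean, beside -2.03 against U6. Of the rises, 1 assay met it on both scales and 24 against the global mean only.

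**Figure D2:**
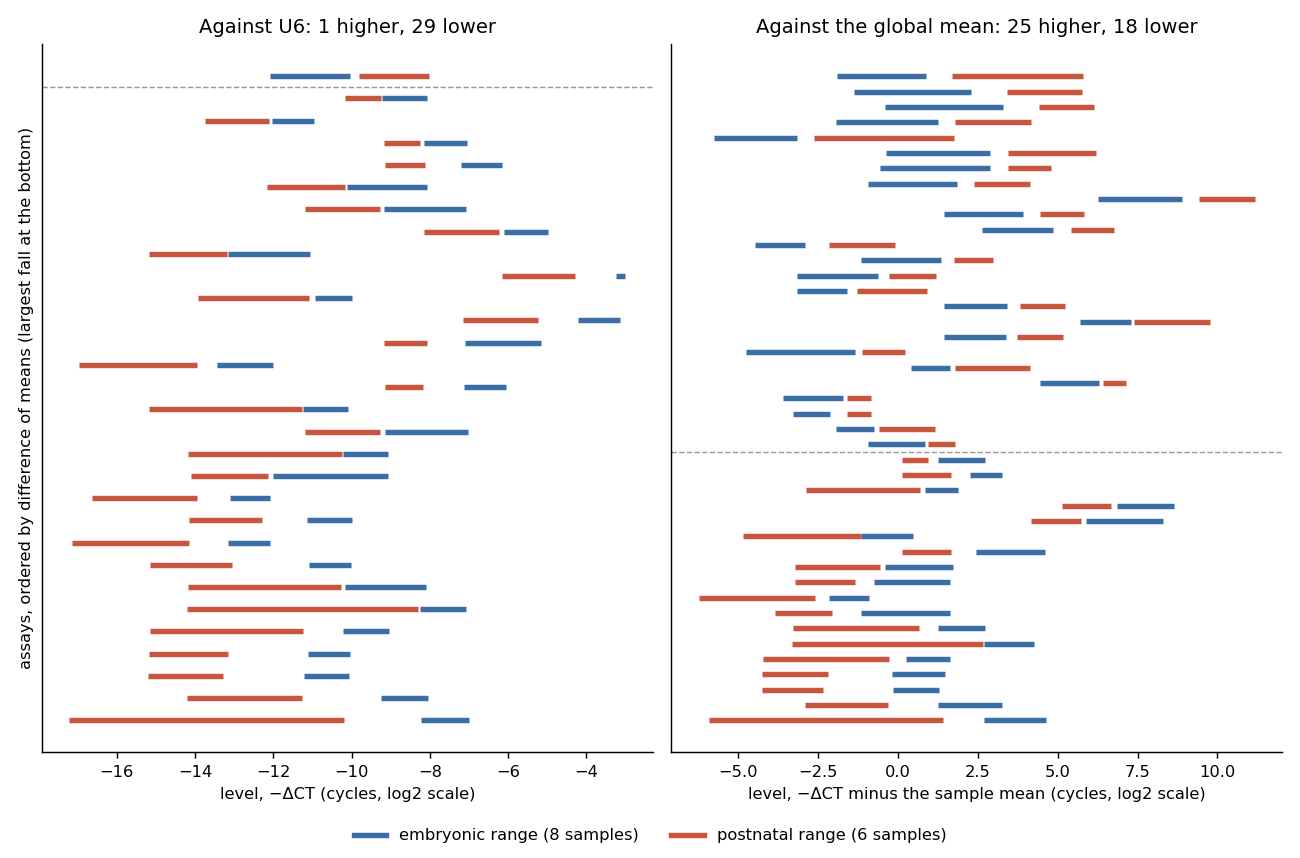
Range of the 8 embryonic samples (blue) and of the 6 postnatal samples (red) for each assay whose ranges do not overlap, as a level in cycles (log2 scale), against U6 (left, 1 higher and 29 lower) and against the global mean (right, 25 higher and 18 lower). Assays are ordered by the difference of means, with rises above the dashed line, and the widest bars are postnatal ranges of falling assays.

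The largest fall was that of assay 2332. Its ΔCT was 7.00, 7.16, 8.23, 8.14, 8.09, 8.24, 7.08 and 7.09 in the 8 embryonic samples, in order from E12 replicate 1 to E18 replicate 2. After birth it was 10.2 and 10.3 at P2, 15.1 and 14.1 at P10, and the adult samples had 16.2 and 17.2. The embryonic samples lay close together, while each later postnatal time point lay below the one before it. The postnatal mean was 73.8-fold lower (difference -6.21, SE 0.90, limma adjusted p = 6.09e-05). Against the global mean it was 69.4-fold lower (adjusted p = 0.000127). Between P2 and the adult alone the difference was -6.45 against U6 (limma adjusted p = 2.23e-07). It was -6.63 against the global mean (limma adjusted p = 1.85e-09). Without P2 the difference between the periods against U6 was -8.01, and without the adult -4.78.

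The next largest fall was that of assay 1186. Its embryonic ΔCT was lowest at 8.05, with a median of 9.10 and a highest value of 9.25. The postnatal values were 12.2 and 11.3 at P2, 13.1 and 13.1 at P10, and the adult samples had 13.2 and 14.2. The postnatal samples thus all lay more than 2 cycles below the embryonic ones (gap 2.03 cycles). The difference was -3.96 against U6 (SE 0.60, limma adjusted p = 6.09e-05), or 15.5-fold. Against the global mean it was -3.87 (limma adjusted p = 4.35e-05), or 14.6-fold. Here the step from E18 to P2 was -3.13 against U6 (limma adjusted p = 0.00107) and -2.02 against the global mean (adjusted p = 0.00562). The median of all 219 assays changed by -1.13 over that step against U6. From E12 to E18 the assay differed by 0.01 against U6 (limma adjusted p = 0.999), where that median changed by 1.01. Against the global mean both assays were lower at E18 than at E12, with differences of -1.37 (adjusted p = 0.0161 for 2332 and 0.0107 for 1186). All 4 numbered assays were picked for their values in this comparison, so the p-values of its difference between the periods add no support.

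The 10 largest falls of those that met the rule on both scales were 8.61-fold to 73.8-fold. At low ΔCT, 1 other assay had a ΔCT between 3.003 and 3.24 in all 8 embryonic samples, the narrowest embryonic range of the 29 falls in the plot of ranges. Its postnatal ΔCT was lowest at 4.29, with a median of 5.12 and a highest value of 6.16. That is a difference of -2.02 against U6, or 4.06-fold, and of -1.93 against the global mean. The mean ΔCT of this assay was the lowest of the 29.

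Assay 1826 was the only one higher in every postnatal sample on both scales. Its ΔCT was 11.2 and 10.1 at E12, 11.2 and 11.2 at E14, 11.1 and 12.1 at E16, and 11.03 and 10.04 at E18. After birth it was 9.82 and 9.13 at P2, 8.12 and 8.03 at P10, and the adult samples had 9.14 and 9.16. The highest level was at P10, and the adult mean lay between those of P2 and P10. The gap between E18 replicate 2 and P2 replicate 1 was 0.22 cycles. The postnatal mean was 4.22-fold higher against U6 (difference 2.08, SE 0.58, limma adjusted p = 0.00961). Against the global mean it was 4.49-fold higher (difference 2.17, limma adjusted p = 0.00505). Neither E18 against E12 (0.08, adjusted p = 0.962) nor the adult against P2 (0.32, adjusted p = 0.650) passed the threshold for this assay against U6. The step from E18 to P2, part of the difference that chose the assay, did not pass either (1.06, limma adjusted p = 0.0928). On the global mean scale the assay was lower at E18 than at E12 (difference -1.29, limma adjusted p = 0.0354), and the adult against P2 gave 0.15 (adjusted p = 0.857). The step from E18 to P2 gave 2.18 on that scale (limma adjusted p = 0.00718).

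Assay 1097 had the largest difference of the 25 rises against the global mean, and was chosen for that after its values were seen. Its ΔCT was 13.0 and 12.2 at E12, 13.2 and 13.1 at E14, 12.1 and 12.2 at E16, and 9.05 and 10.1 at E18. It was 9.18 and 9.28 at P2, 8.08 and 8.05 at P10, and the adult samples had 5.10 and 6.17. Against U6 the groups overlapped, because E18 replicate 1 reached a higher level than either P2 sample. On the other scale they were separated by 0.80 cycles. The postnatal mean was 18.8-fold higher against U6 (difference 4.23, SE 0.80, limma adjusted p = 0.000578) and 20.0-fold higher against the global mean. Against U6 the level rose before birth, with E18 above E12 by 3.003 (limma adjusted p = 0.000204). It rose again after birth, with the adult above P2 by 3.59 (limma adjusted p = 7.46e-05). On the global mean scale these differences were 1.63 (limma adjusted p = 0.00453) and 3.42 (adjusted p = 2.86e-06). Between E18 and P2 the difference was 0.35 against U6 (adjusted p = 0.528) and 1.47 against the global mean (adjusted p = 0.0359). Without E18 the difference between the periods against U6 was 5.001, without P2 it was 5.03, and without the adult 3.23.

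**Figure D3:**
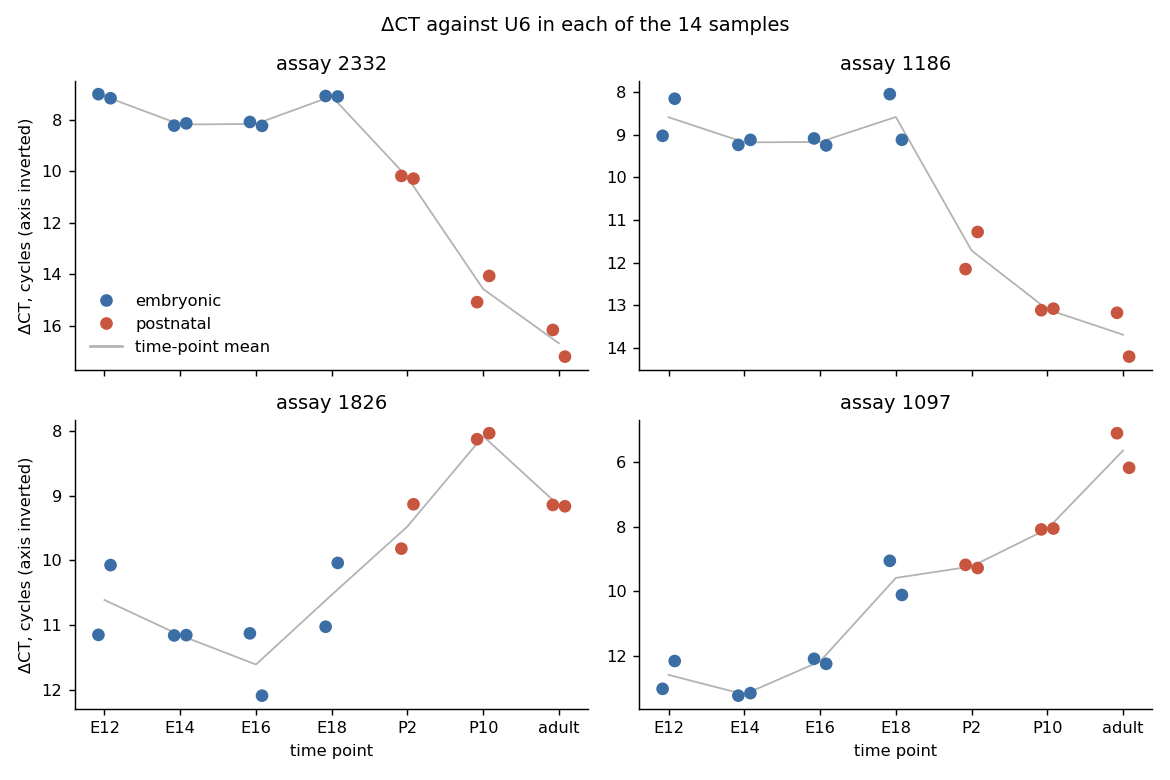
ΔCT against U6 in cycles (axes inverted, each panel with its own scale) of the 4 assays printed by number, in each of the 14 samples by time point, with grey lines through the time-point means. On this scale assays 2332 and 1186 leave a narrow embryonic range at P2 and have their lowest means in the adult, assay 1826 peaks at P10, and assay 1097 has E18 values (9.05 and 10.1) beside those of P2 (9.18 and 9.28).

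The assay with the lowest mean ΔCT of the 25 rises had an embryonic ΔCT between 1.06 and 5.17, with a median of 4.13. After birth it lay between 0.13 and 2.18, with a median of 1.07. The E18 values thus reached into the postnatal range against U6, while the postnatal mean was 6.30-fold higher (difference 2.66). Over the 10 largest of the 25 rises the postnatal mean was 5.60-fold higher or more against U6.

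Of the 25 rises, 24 (assay 1097 among them) overlapped against U6. In each of the 24, at least 1 E18 sample lay inside the postnatal range against U6, and in 21 no sample of another embryonic time point did. An E16 sample did in 3 of them, and no E12 or E14 sample did in any. All 24 had a higher postnatal mean against U6 as well. Against U6 the E18 samples were thus the ones that overlapped, while the sign of the difference was the same on both scales.

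The counts were also taken with 1 time point left out. Each was counted over the assays measured in all samples that remained, so assays outside the 219 could enter. For this reason no share is given. The global mean was retaken over the same assays. Without E18, the separated rises against U6 went from 1 to 31, while the separated falls stayed at 29. Without P2 they were 11 rises and 37 falls, and without any one of the other time points 1 or 2 rises and 31 to 40 falls. On the global mean scale the count was 38 rises and 34 falls without E18, and 38 rises and 40 falls without P2. Without 1 of the others it was 25 to 32 rises and 20 to 24 falls. Against U6 a smaller group can only add separated assays, through narrower ranges or through assays that enter. The step was largest for the rises without E18.

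**Figure D4:**
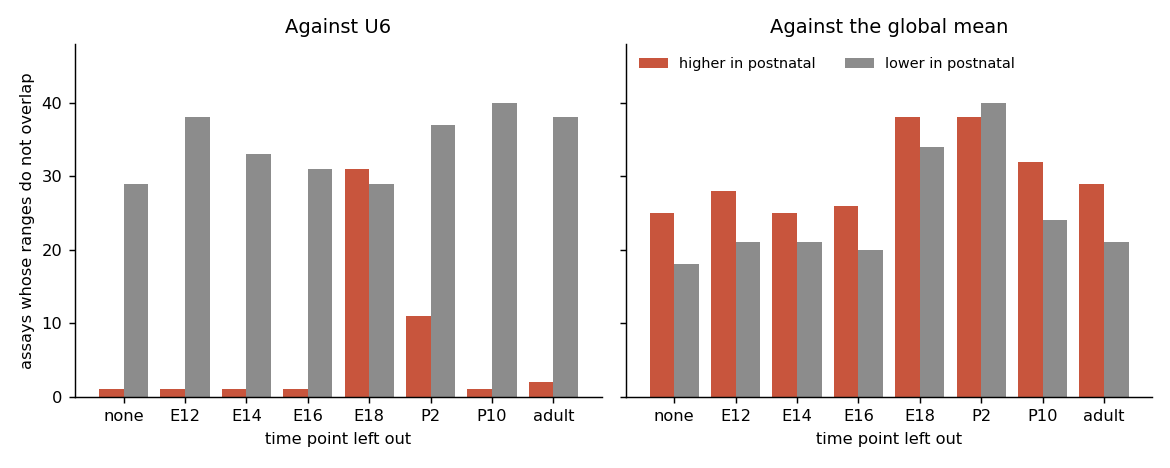
Number of assays whose postnatal and embryonic ranges do not overlap, higher (red bars) or lower (grey bars) after birth, with all samples (none) and with the 2 samples of 1 time point left out, against U6 (left) and the global mean (right). Each count is over the assays measured in all samples that remained. Against U6 the count of rises is 31 without E18, 11 without P2, and 1 or 2 otherwise.

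The time points at the edges of the gaps differed between the scales. Against U6, the highest postnatal sample of the 29 falls was a P2 sample in 24. On the embryonic side, the lowest sample was from E14 in 13, E16 in 7, E18 in 5 and E12 in 4. Against the global mean, the 25 rises were bounded by an E18 sample in 21 and by a P2 sample in 21. The 18 falls on that scale were bounded by a P2 sample in 16 and by an E18 sample in 10.

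The course of the separated assays within each period was as follows. Among the 29 falls, 28 had a lower adult mean than P2 mean, and in 23 the mean was lower at each step from P2 to P10 to adult. Their median change from P2 to the adult was -1.42, against 0.56 over all 219 assays. In the test of the adult against P2 across all assays, 15 of the 29 were called lower and 1 higher (limma, adjusted p below 0.05), where 12.3% of 276 assays were called lower and 15.6% higher. From E12 to E18 their median change was 0.01, against 1.01 over the 219 assays, and 2 of the 29 were called higher, where 41.2% of 277 assays were, and none lower (0.722% of assays). At E12 and E18 the falls had about the same median level against U6, while the median assay was about 1 cycle higher at E18. The rule that chose the falls favours a narrow embryonic range, so this course is partly set by the choice. The spread of their embryonic time-point means was 0.86 cycles at the median, against 1.60 over all 219 assays. From E18 to P2, which is part of the difference that chose them, 24 of the 29 were called lower (36.4% of 280 assays).

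Among the 25 rises against the global mean, 24 had a higher adult mean than P2 mean, and in 20 the mean was higher at each postnatal step. Their median change was 1.21 from E12 to E18, 0.99 from E18 to P2 and 1.17 from P2 to the adult. The medians of all 219 assays on this scale were -0.37, -0.01 and 0.38. In the tests across assays, 14 of the 25 were called higher at E18 than at E12 and 1 lower, where 19.5% were called higher, and 13 were called higher in the adult than at P2, where 13.8% were. The 18 falls on this scale changed by -0.87, -1.02 and -1.71 over the same 3 intervals. Of them 8 were called lower at E18 than at E12 (23.8% of all assays) and 14 lower in the adult than at P2 (15.6%). From E18 to P2, 6 of the 25 were called higher (3.93%) and 7 of the 18 lower (3.93%). These members were chosen on the same samples, so the counts are a description of their course.

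Across the table, 281 assays were measured in at least 4 embryonic and 3 postnatal samples and were tested with the time point as a random block. Against U6, 23 were called higher after birth (8.19%) and 49 lower (17.4%) at a limma adjusted p below 0.05. With the global mean, 39 were called higher (13.9%) and 52 lower (18.5%). All 23 and all 49 were among the calls of the same direction on the second scale, and none changed direction. The median size of the called differences was 2.49 for the higher and -2.57 for the lower assays against U6, where the median of all 281 was 0.02. Of the 49 lower calls, 23 were of assays whose ranges overlapped or that held blanks.

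Of the 4 time points left out in turn (E12, E18, P2 and adult), the adult lowered the counts of calls most. Without it, 5 assays were called higher and 25 lower against U6, and 24 and 31 against the global mean. Without E18, 55 were called higher and 53 lower against U6.

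Another 62 of the 281 assays had blanks. When these were admitted, 13 of them had lower measured values in every postnatal sample that gave one, and none had higher ones against U6, which made 42 falls and 1 rise. With the global mean 10 were lower and 4 higher, which made 28 falls and 29 rises.

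Detection in 1 period only was mostly embryonic. The 51 assays measured before birth only included 22 found in a single sample, while 23 were found in at least 4 of the 8 embryonic samples and in none of the 6 postnatal ones. The 11 assays measured after birth only included 7 found in a single sample, and 2 were found in at least 3 of the 6 postnatal samples. The embryonic-only assays were spread over all embryonic samples, with 16 to 26 of them in each sample and 17 in both E18 samples. Where the periods do not share a measured value, a fold is given only as a bound. For this, every blank of the period without values was replaced by the highest ΔCT that was measured in the same sample. Blanks in the other period were left out, so its mean is over the measured samples only. Such a bound holds only if blanks stand for undetectable levels, not for reactions that failed.

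Of the 23 embryonic-only assays, 4 were measured in all 8 embryonic samples. Each had an adjusted p of 0.0148 in Fisher's exact test of measured against blank samples (two-sided, over the 178 assays with both kinds). These 4 were the only calls among the 178 (2.25%). The test counted the 2 samples of a time point as independent, so its p-values overstate what 4 and 3 time points can show. No assay was called as measured more often after birth (0%), and 34 had an unadjusted p below 0.05 in Fisher's exact test in either direction. The first of the 4 had a ΔCT of 12.0 to 14.8 (median 13.3), at least 43.4-fold above the postnatal bound. The second lay at 12.2 to 14.3 (median 13.7), at least 37.5-fold above it. The third spread most, from 11.9 to 18.3 (median 14.2), at least 15.6-fold. The fourth was close to the limit at 16.0 to 17.2 (median 16.7), at least 4.33-fold.

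The lowest ΔCT values among the 23 belonged to assays that were also blank in some embryonic samples. The first had a ΔCT of 7.46 to 9.90 (median 8.07) in the 6 samples from E12 to E16, and was blank in both E18 samples as in all postnatal ones. Its mean level in those 6 samples was at least 1450-fold above the postnatal bound, but its detection did not pass the test across assays (Fisher's exact test, adjusted p = 0.0953). The next had a ΔCT of 9.15 to 11.1 in 7 of the 8 embryonic samples, blank only in E18 replicate 2, and was at least 432-fold above the bound (Fisher's exact test, adjusted p = 0.0692). A blank beside a level this far above the limit means a drop of many cycles between neighbouring samples or a reaction that gave no value, and these cannot be told apart here.

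Over the 23 assays the bound had a median of 12.9-fold, and it exceeded 4-fold in 18. For 1 assay, with ΔCT values of 18.1 to 19.2, it was below 1 and no fold is given. In 16 of the 23 all values lay below a ΔCT of 17.5, the lowest of the highest values of the 14 samples. Of the 23, 19 were measured in at least 1 E18 sample and 14 at every embryonic time point.

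The 2 postnatal-only assays showed different courses. One was measured at 18.2 in P2 replicate 1 and at 15.1 in P10 replicate 2, and at 14.1 and 14.2 in the adult samples, with a bound of at least 12.6-fold (Fisher's exact test, adjusted p = 0.0953). The other was measured at 15.1 in P2 replicate 2 and at 16.2 and 15.3 at P10 and was blank in both adult samples (adjusted p = 0.245, Fisher's exact test).

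**Figure D5:**
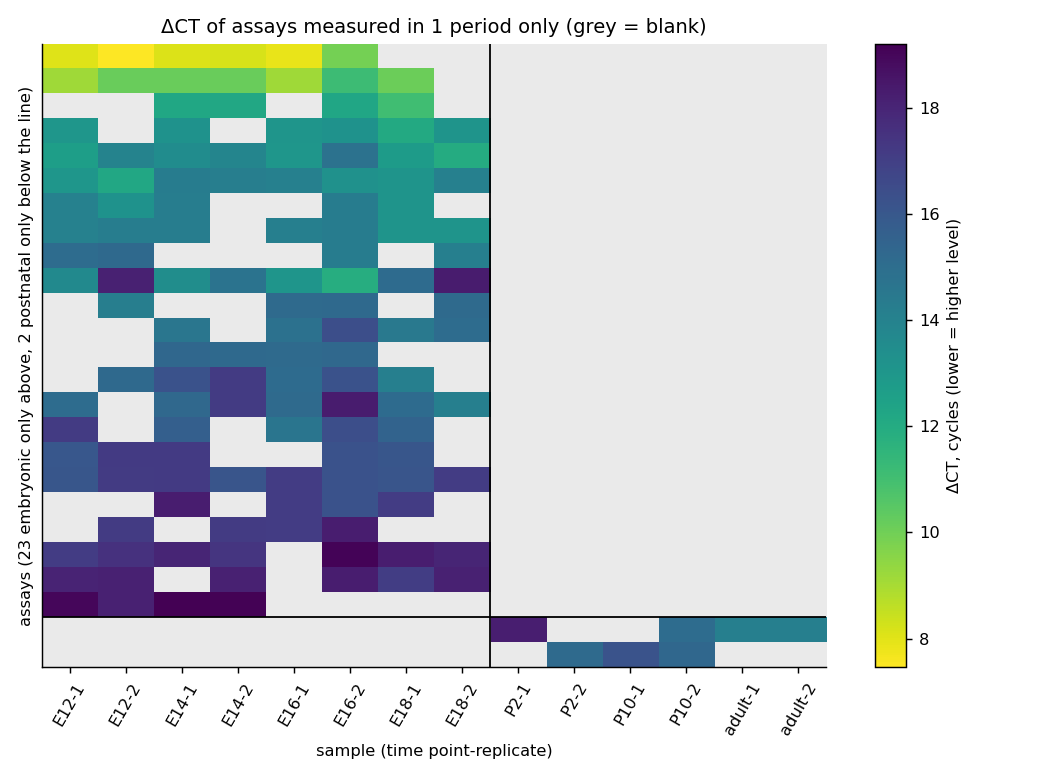
ΔCT in cycles (colour, yellow is a higher level, grey is blank) of the 23 assays measured in at least 4 embryonic samples and no postnatal one (above the horizontal line) and of the 2 measured in at least 3 postnatal samples and no embryonic one (below it), in each of the 14 samples. The top row is the assay at 7.46 to 9.90 from E12 to E16 that is blank at E18.

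Many of the values share a decimal within a sample. An assay was put in a set where its decimals lay within 0.05 cycle of the set's decimal (at the median over the samples used, at least 3) and were nearer to it than to the other set's by 0.02 cycle or more. The larger set held 156 of the 219 assays, the smaller 22, and 41 were in neither. The high mean level of E18 lay mainly in this set, with a mean ΔCT of 9.07 and 9.63 at E18 and 10.2 to 11.2 in the other 12 samples. In the other 63 assays the E18 means were 12.1 and 12.2, and the rest ranged from 11.8 to 13.4. The 1 rise against U6, assay 1826, belonged to the smaller set. The decimal of the smaller set was 0.88 in P2 replicate 1 and 0.025 to 0.165 in the other samples. P2 replicate 1 is also the postnatal edge of the 0.22-cycle gap of assay 1826. Of the 29 falls against U6, 24 belonged to the set of 156. When the set and the other assays were centred separately, 27 assays were separated as higher (12.3%) and 25 as lower (11.4%), and limma called 51 higher (18.1%) and 64 lower (22.8%).

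The headers of the run files give the day each file was last changed, which is not stated to be the day of the run. For card A, 1 day held both periods, with E18 replicate 2 and P2 replicate 1. Between these 2 samples the mean level of the 219 assays differed by -1.22 against U6. On that scale assay 2332 differed by -3.09, assay 1186 by -3.03, assay 1826 by 0.22 and assay 1097 by 0.93. For card B, no day held both periods, and the table does not say which card a row came from. Period and day of card B therefore cannot be told apart.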

How the data were processed

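Rodent TaqMan array cards A and B were used for real-time PCR of the reverse-transcribed RNA. The authors deposited ΔCT values, CT minus that of U6, which their methods treat as log2 values. Their methods set undetermined reactions to a CT limit, while the deposited table leaves cells blank, and blanks were taken as missing. The run files hold plate layouts and no CT, and their software version is not given in the sources used here. In all, 5 cells under 0.001, all in 1 sample, were set to missing. No depth exists for these data, and the number of samples limits the precision.

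The 6 postnatal and 8 embryonic samples were compared on minus ΔCT with limma 3.58.1 in R 4.3.3, with moderated variance and the time point as a random block (correlation 0.653 against U6). Benjamini-Hochberg adjustment ran over all 281 assays tested, two-sided. Contrasts of single time points used 1 mean per time point. Single values per sample were tested with an exact permutation test, and detection with Fisher's exact test (SciPy 1.17.1). Both tests treated the samples as independent, without the time-point block. The limma steps were tested on simulated data. The members, lists and rules were chosen with earlier results of these data known. Assays to print were the largest differences of means against U6 among those separated on both scales, to 2 per direction. The rises held 1 such assay, and the other was added after the values were seen. Alternatives were other scalings, blocks, filters and variances, a common floor for blanks, and samples or time points left out.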

Additional observations from a re-analysis of the deposited data

How the results depend on the processing

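All 33 alternatives left the 4 numbered assays past the threshold in the same direction. These assays were picked for this difference in the same samples, so this adds no support. The difference ranged from -8.01 to -4.62 for assay 2332, -4.52 to -3.37 for 1186, 1.95 to 2.46 for 1826 and 3.23 to 5.03 for 1097, and moved by over 1.5-fold only with a time point left out. The limma adjusted p ranged from 8.76e-11 to 0.0038 for assay 2332, 2.14e-08 to 0.00127 for 1186, 1.04e-05 to 0.0385 for 1826 and 1.39e-08 to 0.014 for 1097. The smallest for each assay came from the fit with time-point means, whose error is the spread between the 2 samples of a time point. Separate centring of the decimal sets, the global mean with time points left out, samples left out or blanks admitted against the global mean, E14, E16 or P10 left out, and samples left out for the number of assays measured were chosen after seeing the data. The cause of the changes below was not tested.

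The 72 calls against U6 (23 higher, 49 lower) became 120 (46, 74) with no time-point block, 158 (73, 85) with time-point means, 115 (51 higher) with the decimal sets centred separately, and 39 higher with the global mean. Leaving out the adult gave 30 (5, 25), leaving out E12 13 higher, and leaving out E18 55 higher. With the global mean, 115 (47 higher) were called without E18, 35 higher without E12, 47 higher without P2 and 31 lower without the adult. Leaving out 1 sample gave 64 to 80 calls, 18 to 29 higher and 42 to 51 lower. The replicate number as a block gave 23 higher and 48 lower. Of the 21 pairs of time points, 3 had a correlation of deviations of same-numbered samples above 0.1 (range -0.42 to 0.24). These values cannot show whether same-numbered samples shared anything but the number.

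The 1 separated rise against U6 became 25 with the global mean, 27 with separate centring, 31 without E18, 11 without P2 and 2 without the adult. Counts of separated assays with samples left out are over the assays measured in all samples that remained. Leaving out 1 sample gave 1 to 4 (4 without E18 replicate 1 or P2 replicate 1, 2 without E18 replicate 2 or adult replicate 2). The 29 falls became 18 with the global mean, and 29 to 35 with 1 sample left out. Against the global mean, the 25 rises became 38 without E18 or without P2. The 18 falls became 28 when blanks were admitted, 34 without E18 and 40 without P2. With 1 sample left out they were 25 to 32 and 17 to 27.

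Assays measured before birth only went from 51 to 77 without P2, and from 23 to 41 among those in at least 4 of 8 embryonic samples (as many in proportion with fewer). With 1 sample left out these were 46 to 64 and 17 to 30. Postnatal-only assays went from 11 to 18, and from 2 to 4, when cells above the lowest sample maximum were counted as blank, and were 9 to 14 and 1 to 3 with 1 sample left out (1 without P2 replicate 2, P10 replicate 1 or P10 replicate 2). The 4 Fisher calls became 15 without P2 and 0 without E12, E18 or the adult, where the 4 assays still lacked postnatal values but fewer samples remained. With 1 sample left out they were 4 to 8 (8 without P2 replicate 1).

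With samples left out, the mean level was taken over the assays measured in all samples that remained, so the assays changed too. The difference in mean level was -0.09 over the 219 assays. It turned to 0.21 without E18, and ranged from -0.18 to 0.08 with 1 sample left out. It was 0.0801 without E18 replicate 1, 0.0036 without E18 replicate 2 and 0.0072 without P2 replicate 1 (exact permutation p from 0.214 to 0.966). The difference in assays measured ranged from -42.0 to -34.2 with 1 sample left out.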
